A study of Mus musculus with 6 samples.

Results

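Heat shock chaperones of the cytosol and the mitochondria were followed in regulatory T cells through 10 genes: Hspa1a, Hspa1b, Hspa8, Hsp90aa1, Hsp90ab1, Hsph1, Dnaja1, Dnajb1, Hspd1 and Hspe1. They were chosen by name, and every probe that the array's annotation gives to 1 of these 10 symbols was taken, whatever its value. The annotation named 11 of the 46632 probes for 6 of the 10 genes and none for the other 4, Hspa1b, Hspa8, Hsp90ab1 and Hspe1, which were not analysed here. Of the 6 genes with a probe, 3 were bright enough to be tested: Dnajb1, Hspd1 and Hsph1. The samples are 3 of the genotype Blimp1 +/gfp and 3 of the genotype Blimp1 gfp/gfp, labelled as regulatory T cells of bone marrow from C57/B6 mice, each on 1 Illumina array. Blimp-1 is a transcriptional repressor encoded by Prdm1. From general knowledge of this allele, the gfp cassette disrupts Prdm1, so that Blimp1 gfp/gfp cells lack functional Blimp-1 and Blimp1 +/gfp cells keep 1 working copy. All 6 samples carry a gfp allele, so the controls are heterozygous. The labels used here give neither age, nor animals per sample, nor the gate for the cells. No label says that the 3 samples of a genotype are separate animals, so the p-values reflect only the spread among these arrays. That spread is not that of repeated arrays of 1 RNA: in Blimp1 +/gfp, Hba-a1, an erythroid hemoglobin gene, read 5.78, 8.18 and 13.40 (log2), and in Blimp1 gfp/gfp, Lyz2, a myeloid lysozyme gene, read 10.28, 7.35 and 7.16.

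Heat shock chaperones help other proteins to fold and keep damaged ones from clumping. In the cytosol, Hsp70 proteins (Hspa1a and Hspa1b, which rise with stress, and Hspa8, which is made at all times) hold unfolded stretches. J-domain proteins such as Dnaja1 and Dnajb1 bring them clients and switch on their ATPase, Hsph1 (Hsp110) exchanges their nucleotide, and Hsp90 proteins (the inducible Hsp90aa1 and the constitutive Hsp90ab1) finish the folding of kinases and receptors. In the mitochondrial matrix, Hspd1 (Hsp60) forms a folding chamber that Hspe1 (Hsp10) closes. The stress-inducible members are switched on by the factor HSF1, which binds heat shock elements, alternating copies of GAA and TTC. In T cells these genes are known to rise with heat, with activation and with handling of the cells.

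The heat shock elements near the start sites are shown because the heat shock genes are known for them. The genes were chosen as heat shock genes, so the presence of such elements describes the choice and is not a result. RefSeq's promoter table for GRCm38.p6, with 250 bases before and 50 after each start, held 12 windows for 7 of the 10 genes, and Hspa8, Hsp90aa1 and Hsp90ab1 were not looked at. The motifs searched were GAANNTTC and TTCNNGAA, each of which reads the same on both strands, and the longer forms GAANNTTCNNGAA and TTCNNGAANNTTC, which are each other's reverse strand and contain the short ones. Capitals mark the matched letters in runs of 30 bases, 5′ to 3′ on the gene's strand.
Hspd1, chr1:55088053-55088082, minus strand: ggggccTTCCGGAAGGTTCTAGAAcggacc
Hspe1, chr1:55088053-55088082, plus strand: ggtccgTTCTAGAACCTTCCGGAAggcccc
Hsph1, chr5:149636351-149636380, minus strand: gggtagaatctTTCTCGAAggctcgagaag
Hsph1, chr5:149636280-149636309, minus strand: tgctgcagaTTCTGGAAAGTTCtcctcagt
Dnaja1, chr4:40722333-40722362, plus strand: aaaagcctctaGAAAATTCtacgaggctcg
Hspa1a, chr17:34972242-34972271, minus strand: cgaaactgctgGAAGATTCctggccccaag

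A short motif was found in 6 of the 7 genes, against 17.0% of the 27025 genes in the table, and a long form in 3 of the 7, against 0.662%. These counts are not of independent genes, since 4 of the 7 share their match with a neighbour or near-identical copy, and the 7 genes have 12 windows where the table has 32851 for 27025. Hspd1 and Hspe1 stand head to head on chromosome 1 and share a single stretch of 18 matched bases, which lies 144 to 127 bases before a start of Hspd1 and 89 to 72 bases before the start of Hspe1. Hsph1 has a short match before both of its listed starts and a long one after them. Hspa1a and Hspa1b lie next to each other on chromosome 17, and their windows are identical at 296 of 300 positions, including the match. Neither window of Dnajb1 held these letters, which says only that they are not in these windows.

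The arrays detected 31.5% to 34.5% of their probes (detection p under 0.05). All 8 regulatory T cell markers, among them Foxp3, Cd3e, Il2ra and Ctla4, were detected on all 6 arrays, and the list's mean log2 level per array lay between 12.08 and 12.32 for Blimp1 +/gfp, and for Blimp1 gfp/gfp between 11.45 and 12.10. In limma, Tnfrsf18, which encodes GITR, fell by 1.11 ± 0.18 (SE) with a Benjamini-Hochberg adjusted p of 0.0242, a call that ended with median scaling (0.0704), with the replicate block (0.0835) and without replicate 1 or 2 of Blimp1 +/gfp or replicate 1 or 3 of Blimp1 gfp/gfp (0.0545 to 0.0952), and the other 7 did not pass. Markers of other cells were also present. Of 9 named myeloid markers, 3 to 6 were detected per Blimp1 +/gfp array and 3 to 5 per Blimp1 gfp/gfp array, with Elane and Itgam on none. Within that list Cebpa, a myeloid transcription factor gene, rose by 2.37 ± 0.28 (SE), with 0.00872 after Benjamini-Hochberg adjustment in limma. The list did not rise as a whole: of its 4 tested genes 2 had a difference above 0, and the median was -0.81. Its marker Fcer1g read 8.98, 9.73 and 12.91 in Blimp1 +/gfp and 9.01, 8.05 and 7.8 in Blimp1 gfp/gfp. S100a8 and S100a9 were each detected on 2 Blimp1 +/gfp arrays and on 0 of the other 3. Of 4 erythroid markers 0, 1 and 3 were detected in Blimp1 +/gfp and 3, 3 and 4 in Blimp1 gfp/gfp, and of 6 B cell markers 3 to 4 against 4 to 5, with Sdc1 on none. The B cell gene Cd79a, detected on 1 array against 3, was higher by 1.91 in Blimp1 gfp/gfp, and the cytotoxic cell gene Nkg7 was lower (-1.21). Neither passed (limma, Benjamini-Hochberg adjusted p of 0.146 and 0.147). Of 4 tested genes of the CD8 and NK list 2 had a difference above 0 (median 0.22), of 4 B cell genes 3 (0.54) and of 3 erythroid genes 3 (0.65). All 6 tested genes for dendritic cells and antigen presentation were lower (median -0.66), and 0 of them passed. The mean of that list's 8 named markers was 9.14, 9.27 and 10.72 in Blimp1 +/gfp and 9.05 to 9.56 in Blimp1 gfp/gfp. Only replicate 3 of Blimp1 +/gfp thus lay above the range of Blimp1 gfp/gfp. The part of these markers in the chaperone values was not tested. The 3 arrays of a genotype shared 1 BeadChip and no BeadChip held both genotypes, so the effect of either cannot be told apart. The Y-linked Eif2s3y was detected on all 3 arrays of Blimp1 +/gfp and on 0 of the other 3, so a difference of sex between the samples cannot be told apart from genotype either. The X-linked Xist read 9.69, 9.20 and 5.52 in Blimp1 +/gfp, undetected on replicate 3, and 9.89, 11.37 and 11.02 in Blimp1 gfp/gfp. Blimp1 +/gfp replicates 1 and 2 thus carried both transcripts, and replicate 3 carried Eif2s3y without detectable Xist. Replicate 3 also had the lowest values of Hsph1 and of the probe that represents Hspd1, described below. In samples of mixed cells, fewer cells of a type and less RNA per cell cannot be told apart.

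None of the 3 measured chaperone genes differed between the genotypes beyond the spread of the arrays. After quantile normalization, Dnajb1 lay at nearly the same level on all 6 arrays. The mean of Blimp1 gfp/gfp was 1.28-fold higher for Hspd1 and 1.34-fold lower for Hsph1. For each of the 3 genes the values of the genotypes overlapped. In limma with Benjamini-Hochberg adjustment over all 8743 genes tested, 0 of the 3 passed the threshold of 0.05, and 0 had an unadjusted p under 0.05. Over all genes 4.12% passed (212 rose and 148 fell, or 294 and 120 with median scaling), so a count of 0 among 3 genes is near this background and is not a result about the chaperones. What the data give is the interval of each difference.

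Dnajb1 (Hsp40) is the J-domain partner of inducible Hsp70 and was read by the probe ILMN_1240323. Its normalized log2 intensities were 12.54, 12.53 and 12.39 for Blimp1 +/gfp and 12.52, 12.42 and 12.47 for Blimp1 gfp/gfp, in the order of replicates 1, 2 and 3, as in every such sentence. The 6 values lay close together, and those of Blimp1 gfp/gfp fell within the range of Blimp1 +/gfp. The group means were 12.49 ± 0.08 and 12.47 ± 0.05 (SD, n = 3 each). The difference, Blimp1 gfp/gfp minus Blimp1 +/gfp as throughout, was -0.02 ± 0.13 (SE) with a 95% interval of -0.32 to 0.29 (limma, Benjamini-Hochberg adjusted p = 0.971). On a linear scale the interval runs from 0.80-fold to 1.22-fold. A change of Dnajb1 larger than this is outside the interval, while smaller ones are within it. With median scaling, which moved the median of all genes from 0.03 to 0.16, the difference was 0.13, on the other side of 0 but still below that median. The SE of Dnajb1 was 0.20 there, against 0.13 with quantile normalization.

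Hspd1, the chamber-forming subunit of the mitochondrial chaperonin, had 2 probes above the detection filter. On ILMN_2713841, which represents the gene, the log2 intensities were 11.98, 11.90 and 11.48 in Blimp1 +/gfp and 12.62, 11.88 and 11.92 in Blimp1 gfp/gfp. Replicate 1 of Blimp1 gfp/gfp was the highest of the 6 and replicate 3 of Blimp1 +/gfp the lowest, and the other 4 lay between 11.88 and 11.98. The difference was 0.35 ± 0.25 (SE) with a 95% interval of -0.24 to 0.95 (limma, Benjamini-Hochberg adjusted p = 0.529), that is 0.845-fold to 1.93-fold. It was 0.11 without Blimp1 gfp/gfp replicate 1, 0.20 without Blimp1 +/gfp replicate 3 and 0.15 with the mean over both probes.

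The second Hspd1 probe, ILMN_2639036, ordered the arrays differently. Its log2 intensities were 6.16, 7.72 and 7.21 in Blimp1 +/gfp and 5.27, 8.08 and 7.58 in Blimp1 gfp/gfp, where the 5.27 of replicate 1 was not detected (detection p 0.230). The array on which the first probe read highest was thus the lowest on the second. The difference of the second probe was -0.06 ± 0.75 (SE), with a 95% interval of -1.83 to 1.72 (limma over all 12042 kept probes, Benjamini-Hochberg adjusted p = 0.982). In that fit 0 of the 4 member probes passed, where 2.96% of all probes did. No probe sequence is given in the sources used here, so which part of Hspd1 either probe reads is not known, and sequences that resemble Hspd1 elsewhere in the genome could add signal.

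Hsph1 (Hsp110), the nucleotide exchange factor of cytosolic Hsp70, was read by ILMN_1258510. Its log2 intensities were 11.33, 10.79 and 9.94 in Blimp1 +/gfp and 10.61, 10.08 and 10.11 in Blimp1 gfp/gfp. The Blimp1 +/gfp arrays held both the highest and the lowest of the 6 values, so the Blimp1 gfp/gfp arrays lay inside their range. The difference was -0.42 ± 0.36 (SE) with a 95% interval of -1.26 to 0.43 (limma, Benjamini-Hochberg adjusted p = 0.613), that is 0.417-fold to 1.35-fold. It was -0.79 without Blimp1 +/gfp replicate 3, where the adjusted p was 0.177, and -0.09 without Blimp1 +/gfp replicate 1. Replicate 3 of Blimp1 +/gfp was also the array with the highest mean of the 9 myeloid markers (8.42, against 6.44 and 7.47 on the other 2 arrays of that genotype and 6.41 to 7.06 in Blimp1 gfp/gfp) and with the highest mean of 8 markers for dendritic cells and antigen presentation (10.72, against 9.05 to 9.56 on the other 5). Their part in the Hsph1 values was not tested.

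**Figure D1:**
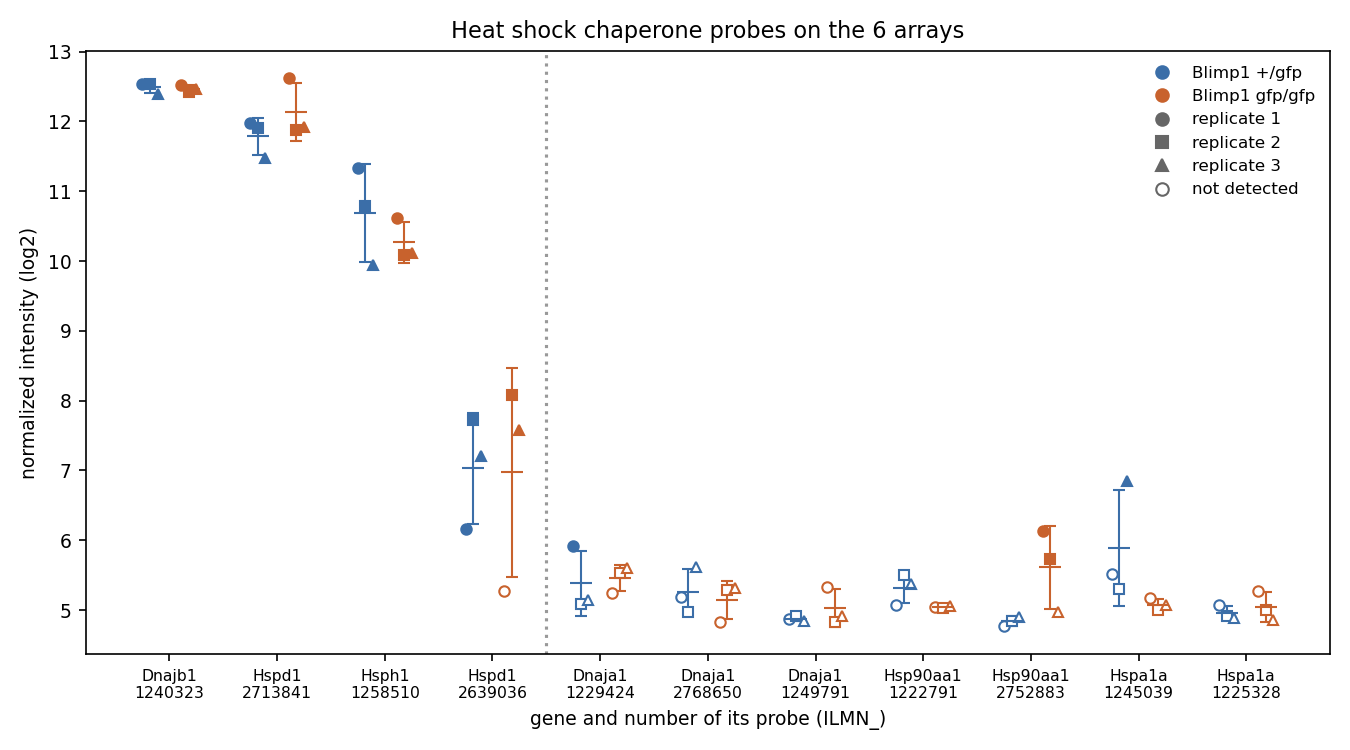
Normalized log2 intensity (vertical axis) of the 11 chaperone probes (horizontal axis) on the 3 Blimp1 +/gfp and the 3 Blimp1 gfp/gfp arrays, with the replicate given by the symbol, arrays on which the probe was not detected shown hollow, and the mean ± SD of 3 arrays as a dash with bars; levels of different probes are not comparable. The 4 probes left of the dotted line passed the detection filter, and within each of them the genotypes overlap; right of it, 4 of 42 symbols are filled.

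**Figure D2:**
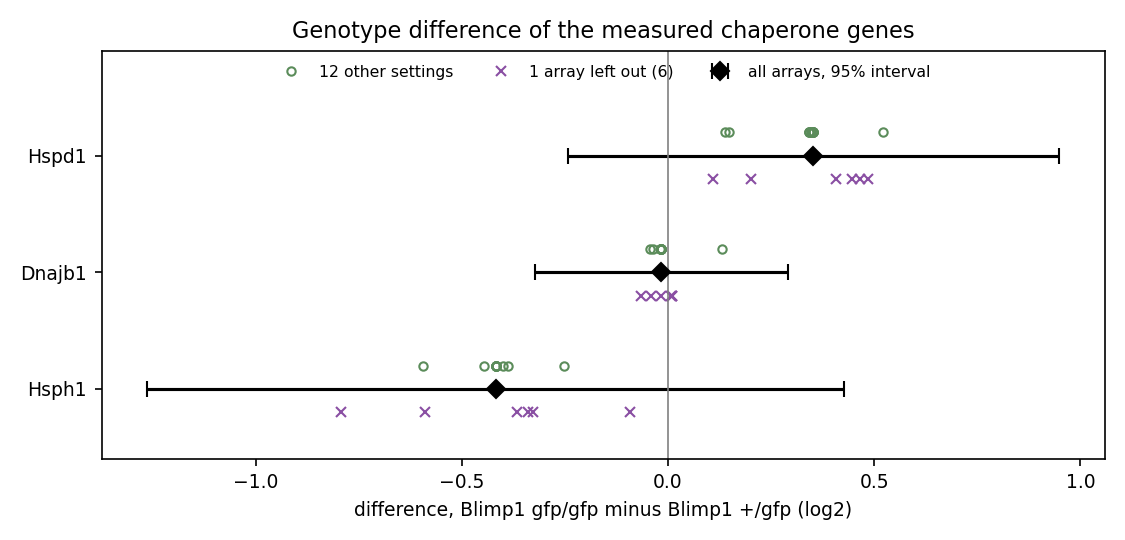
Difference in log2 intensity between the genotypes for the 3 measured chaperone genes, with the 95% interval from limma on all 6 arrays (diamond and bar), the value under 12 other settings (circles) and with 1 of the 6 arrays left out (crosses). All 3 intervals include 0. Hspd1 stays above 0 and Hsph1 below 0 at every point, while the points of Dnajb1 lie on both sides. Circles of settings that changed only the filter, the variance trend or the replicate block repeat the value of the diamond.

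The spread within a genotype differed between the 3 genes. For Dnajb1 the SD over 3 arrays of Blimp1 +/gfp was 0.08 and over those of Blimp1 gfp/gfp 0.05, where the medians over all genes tested were 0.23 and 0.21. For Hspd1 it was 0.27 and 0.42. For Hsph1 the SD was 0.70 over the Blimp1 +/gfp arrays, larger than or equal to that of 94.8% of all genes, and 0.30 over the others. The range of Hsph1 over the 3 Blimp1 +/gfp arrays, 1.39, was thus more than its difference between the genotypes. With each gene centred on its mean over the 6 arrays, Blimp1 +/gfp replicate 3 was the lowest array for all 3 genes (-0.09 for Dnajb1, -0.48 for Hspd1 and -0.54 for Hsph1). For Hspd1 this and the centred values below hold for the probe that represents the gene. On ILMN_2639036 that array read 7.21, and the lowest was Blimp1 gfp/gfp replicate 1 (5.27). The high mean of replicate 1 in Blimp1 +/gfp (0.31) came mostly from Hsph1 (0.85, against 0.06 for Dnajb1 and 0.02 for Hspd1), and that in Blimp1 gfp/gfp (0.28) mostly from Hspd1 (0.66, against 0.04 for Dnajb1 and 0.13 for Hsph1). The 6 other genes whose centred profiles lay closest to the mean profile of the 3 were Sult2b1, Cacnb1, Zfp598, Rpa3, Bsg and Mocs3, with root mean square differences of 0.0452 to 0.0612 on the log2 scale. They were picked as the nearest of all genes tested, so their closeness describes the choice and is not a result. Another kept probe of Sult2b1, Bsg and Mocs3 gave genotype differences of 0.53, 0.36 and 0.39, against -0.01, -0.03 and 0.03 on the probes used.

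Hspa1a, Dnaja1 and Hsp90aa1 were represented only by probes near or below background. Their 7 probes were detected in 4 of 42 readings, and their raw intensities ran from 127.3 to 239.3, where the array medians over all probes were 157.4 to 164.8. These probes therefore do not show whether the genes were made. With no filter on dim probes, 0 of the 7 passed in limma after Benjamini-Hochberg adjustment (smallest adjusted p = 0.383), where 0.921% of 29976 probes did, and 1 had an unadjusted p under 0.05.

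That probe was ILMN_2752883 of Hsp90aa1, the inducible cytosolic Hsp90. Its log2 intensities were 4.77, 4.85 and 4.91 in Blimp1 +/gfp, all undetected, and 6.14, 5.73 and 4.97 in Blimp1 gfp/gfp, where replicates 1 and 2 were detected (detection p 0.0193 and 0.0381). The second Hsp90aa1 probe, ILMN_1222791, was not detected on any array, at 5.08, 5.50 and 5.37 in Blimp1 +/gfp and 5.04, 5.03 and 5.06 in Blimp1 gfp/gfp. Against the lowest detectable level no fold above 1 remained for the first probe, and no direction can be read from the second.

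For Hspa1a, the main heat-inducible Hsp70, ILMN_1245039 read 5.52, 5.30 and 6.85 in Blimp1 +/gfp and 5.17, 5.0 and 5.07 in Blimp1 gfp/gfp. It was detected only on Blimp1 +/gfp replicate 3 (detection p 0.00187), so the bound on its fold, at least 1.14-fold higher in Blimp1 +/gfp by the group means over the lowest detectable level, rests on that 1 array (limma with no filter, Benjamini-Hochberg adjusted p = 0.538). The other Hspa1a probe, ILMN_1225328, was detected on no array and lay between 4.86 and 5.28. Because Hspa1a and Hspa1b are near-identical copies, either probe may read both.

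For Dnaja1, a J-domain partner of Hspa8 in protein import and folding, 1 of 18 readings was detected, on ILMN_1229424 in Blimp1 +/gfp replicate 1 (5.91, detection p 0.0437). The other 2 Dnaja1 probes were detected on no array, so no difference is given for this gene.

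The authors' deposited log2 values gave the same picture. For the 11 probes they differed from the values above by at most 0.0614 per array, and the genotype differences by at most 0.0111. The differences from the deposited values were -0.02 for Dnajb1, 0.34 for Hspd1 and -0.42 for Hsph1.

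Around these genes, 126 further chaperone and heat shock genes were listed in 8 groups, and 86 of them could be tested. Of the 86, 1 rose and 0 fell (limma, Benjamini-Hochberg adjusted p under 0.05), where 2.42% of all genes rose and 1.69% fell. At an unadjusted p under 0.05, 11 were higher and 0 lower, where all genes gave 11.3% and 7.22%. The genotypes did not overlap for 23 of the 86, where 25.8% of all genes did not, and for 0 of the 3 measured members. The median difference of the 86 was 0.08, beside 0.03 over all genes tested.

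The gene that rose was Dnajc6, which encodes auxilin, a J-domain protein that recruits Hspa8 to uncoat clathrin vesicles. Its log2 intensities were 6.14, 6.19 and 7.06 in Blimp1 +/gfp and 8.82, 8.02 and 8.11 in Blimp1 gfp/gfp, so that every Blimp1 gfp/gfp array lay above every Blimp1 +/gfp array. The difference was 1.85 ± 0.32 (SE), a 3.61-fold rise (limma, Benjamini-Hochberg adjusted p = 0.0283). The call held in 1 of 6 omissions of an array, that of Blimp1 +/gfp replicate 3 (0.0134), and ended in the other 5 (0.0569 to 0.115), and with the replicate number as a block it was 0.0849. The other 21 J-domain proteins tested did not pass, and the median of the 22 was 0.00.

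Among the partners of Hsp70, Hspa2, an Hsp70 best known from the testis, had a difference of 1.41 ± 0.30 (SE), with an adjusted p of 0.0536 in limma (Benjamini-Hochberg). It passed with median scaling (0.0308) and without Blimp1 gfp/gfp replicate 2 (0.0463). Hspa4, a further Hsp110 protein and thus a relative of Hsph1, differed by 0.51 ± 0.28 (SE), with an adjusted p of 0.392 in limma. Of 23 cochaperones, 0 passed in limma and 4 were higher at an unadjusted p under 0.05. The smallest p were those of Fkbp5, a glucocorticoid-responsive Hsp90 partner (0.80 ± 0.21 SE; Benjamini-Hochberg adjusted p in limma 0.0922), and Bag4, which binds the Hsp70 ATPase (0.61 ± 0.16; 0.0976). Fkbp5 passed with median scaling (0.0338) and without Blimp1 +/gfp replicate 3 (0.0281).

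Of the heat shock factors, Hsf2 was tested, with a difference of -0.30 ± 0.20 (SE) and a Benjamini-Hochberg adjusted p of 0.490 in limma, and Hsbp1, which binds HSF1, gave -0.05 ± 0.20. Hsf1 was not analysed here. Of the small heat shock proteins 2 of 11 were bright enough to test, Hspb6 (-0.22 ± 0.21 SE) and Hspb1 (0.00 ± 0.43), and 0 passed in limma, also at an unadjusted p under 0.05. The cytosolic chaperonin TRiC, which folds actin and tubulin, and its feeder prefoldin gave 12 tested genes. Of these 0 passed in limma, while 11 had a difference above 0, as did 54.7% of all genes, and the median was 0.23. Cct2 differed by 0.69 ± 0.21 (SE) and Cct5 by 0.84 ± 0.32, both subunits of the TRiC ring. Their unadjusted p in limma were 0.0135 and 0.0357, and after Benjamini-Hochberg adjustment 0.133 and 0.225. Without Blimp1 +/gfp replicate 3 the difference of Cct2 was 0.49, the lowest of the omissions.

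In the mitochondria, Hspa9 (mortalin), the matrix Hsp70 that works upstream of Hspd1, had a difference of 0.30 ± 0.13 (SE) with a Benjamini-Hochberg adjusted p of 0.279 in limma, and its J-domain partner Dnaja3 one of 0.34 ± 0.15. The 11 mitochondrial genes tested had a median of 0.18, with 9 above 0, and 0 passed in limma, also at an unadjusted p under 0.05. Of 10 genes of the Hsp70 and Hsp90 system of the endoplasmic reticulum 0 passed in limma. Of these 3 had a difference above 0, and the median was -0.09. Hspa5 (BiP) differed by 0.54 ± 0.22 (SE), with an unadjusted p of 0.0423 in limma and 0.248 after Benjamini-Hochberg adjustment. Without Blimp1 +/gfp replicate 3 its difference was 0.31. Dnajc1 differed by -0.55 ± 0.28 and Hsp90b1 (GRP94) by -0.09 ± 0.19.

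Immediate-early genes, which respond within minutes to stimulation and to handling of cells, were listed beside the chaperones. Of 13 tested, 1 rose and 0 fell, where 2.42% of all genes rose and 1.69% fell. At an unadjusted p under 0.05 in limma, 3 were higher and 0 lower, where all genes gave 11.3% and 7.22%. The genotypes did not overlap for 3 of the 13, where 25.8% of all genes did not. For Egr2, a zinc finger factor induced through the T cell receptor, Blimp1 +/gfp read 9.76, 9.82 and 10.01 and Blimp1 gfp/gfp read 10.69, 11.21 and 11.08, without overlap. Egr2 thus rose by 1.13 ± 0.18 (SE), at 0.0209 after Benjamini-Hochberg adjustment of the limma p-values. Its call ended without replicate 1 or 2 of Blimp1 +/gfp or replicate 2 or 3 of Blimp1 gfp/gfp (0.0666 to 0.0938) and with the replicate block (0.0529). The median of the 13 was -0.12.

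**Figure D3:**
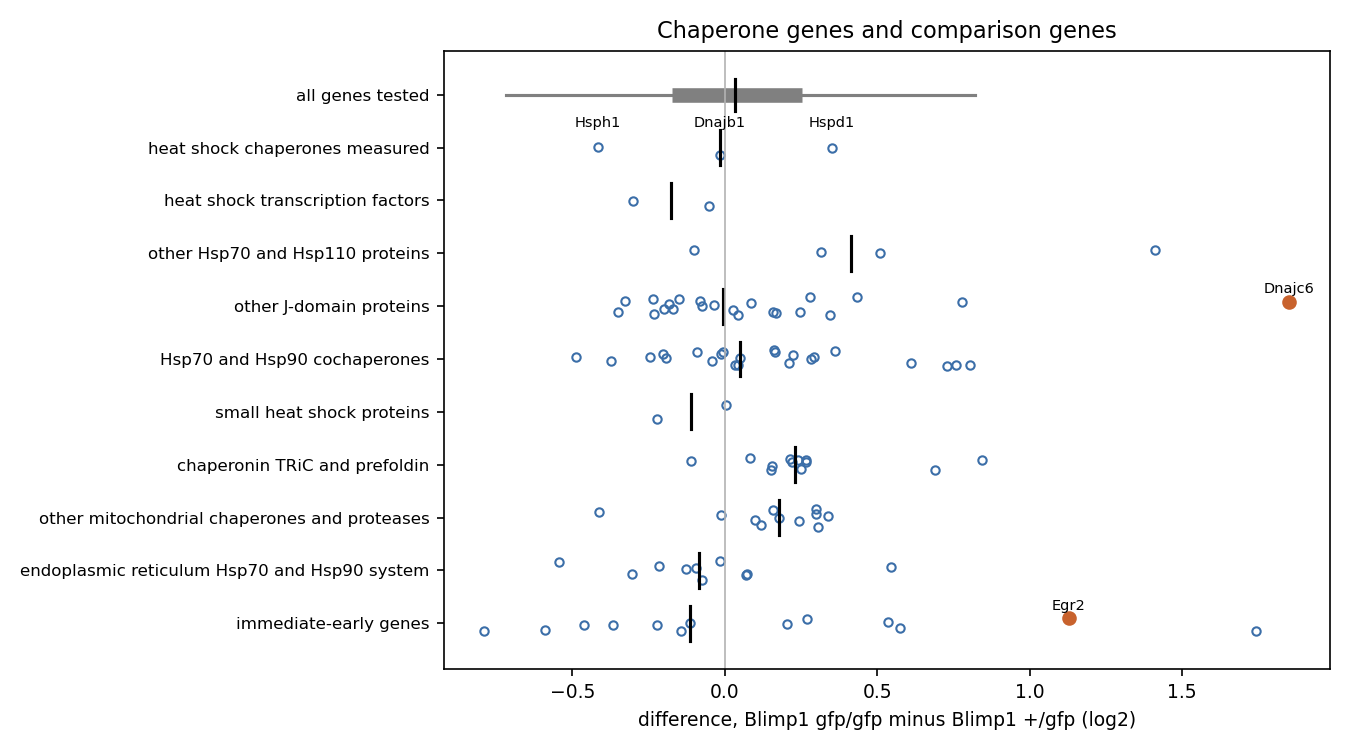
Difference in log2 intensity between the genotypes (horizontal axis) for every tested gene of the measured heat shock chaperones, the 8 groups of other chaperone genes and the immediate-early genes, with list medians as black lines and genes past the threshold filled; the top row gives the median, the quartiles and the 5th to 95th percentile of all 8743 genes. The 2 filled points are Dnajc6 at 1.85 and Egr2 at 1.13, and the 3 measured members lie between -0.42 and 0.35.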

How the data were processed

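The members and the gene lists were chosen with earlier results of these data known. The deposited signal table gives mean bead intensity per probe on a linear scale, neither background-subtracted nor normalized by its values, and, per the file headers, a detection p-value beside each of them. BeadStudio and limma are the tools that the submitters' processing notes name, with no version or setting. The authors also deposited log2 values of the same arrays. These differed from neqc applied to the intensities by at most 0.0975 (median 0.00293), kept the rank order of each array, and have medians of 5.234 to 5.236, so they were used as an alternative.

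The function neqc of limma 3.58.1 (R 4.3.3) was applied to the intensities: it corrects background by normexp, guided by the detection p-values, adds 16, and then quantile-normalizes and takes log2. The offset compresses differences of dim probes. Probes with 1 symbol (29976) were kept where the detection p was under 0.05 on at least 3 of 6 arrays (12042), and a gene was represented by its kept probe with the highest mean (8743 genes). Symbols matched RefSeq by Entrez ID for 29921 probes. Genotypes were compared with lmFit and eBayes over all genes, and again over all kept probes, with Benjamini-Hochberg adjustment at 0.05. Precision is limited by having 3 arrays per genotype. Named genes were every member probe, up to 4 genes past the threshold per list or the 2 of smallest p, Hsf2, Hspa5, Hspa9 and Hsp90b1, the markers and the 6 nearest profiles. A fold against the lowest detectable level divides the brighter group's mean, undetected arrays included, by the dimmer group's. Each dim array's value was first raised, where lower, to the lowest value of any detected probe there. Alternatives were other background corrections, normalizations, filters and probe summaries, a variance trend, weights for arrays, the replicate number as a block, the deposited values and the omission of each array, with probes and genes kept. Figures were drawn with matplotlib 3.10.9.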

Additional observations from a re-analysis of the deposited data

How the results depend on the processing

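The count of measured chaperone genes past the threshold was 0 under all 12 other settings and all 6 omissions of an array. Hspd1 kept its direction throughout (0.14 to 0.52, and 0.11 to 0.48 over the omissions), and so did Hsph1 (-0.60 to -0.25, and -0.79 to -0.09). Part of this was fixed in advance. Settings that changed only the filter, the variance trend or the replicate block could not move the differences, which stayed at 0.352 and -0.417. The fit over every kept probe read Hspd1 from its representing probe only, and the mean over probes left Hsph1, with 1 probe, unchanged. The difference of Dnajb1, near 0, turned positive with median scaling (0.131) and in 3 of 6 omissions (range -0.0651 to 0.00914). Median scaling also moved the median of all genes from 0.032 to 0.16, and relative to that median Dnajb1 stayed below. The second Hspd1 probe ran from -0.594 to 0.793 over the omissions. Of the other chaperone and immediate-early genes, 2 passed as reported, 4 with median scaling, 0 with the replicate block and 0 to 3 over the omissions. The median within-genotype SD of the 3 measured genes, 0.352, was 0.318 to 0.428 under 4 alternatives. Over all genes, 360 passed as reported, 171 with the replicate block, 827 with array weights and 87 to 366 over the omissions. Same-numbered arrays deviated together weakly or not at all (correlations of 0.189, -0.0759 and 0.00102), so the numbers, which are also BeadChip sections, were not taken as pairs; with the replicate block Hspd1 and Hsph1 had adjusted p of 0.386 and 0.417 in limma. For Hspa1a, Dnaja1 and Hsp90aa1, signal over background limits what can be said: 4 of 42 readings were detected.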
